A study of Homo sapiens with 8 samples.

Results

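The genes described here are 7 secreted factors linked to cell stress, GDF15, INHBE, VEGFA, ADM, STC2, FGF21 and ANGPTL4, out of 19775 genes measured on Affymetrix U133 Plus 2.0 arrays. They form a given list, chosen with earlier results of these data known. Each gene is represented by the probe set that maps to its symbol alone and has the highest mean over the 8 arrays. All 8 arrays carry RNA of NCI-H1975, an established line of human lung adenocarcinoma cells that depend on a mutated EGF receptor. The cultures received vehicle (DMSO), osimertinib at 10 nM (a covalent EGFR inhibitor), alpelisib at 1 µM (an inhibitor of the PI3K alpha catalytic subunit) or both drugs, in each case with no L-histidinol or with 2 mM L-histidinol, for 24 hours. L-histidinol blocks the charging of histidine onto its tRNA and so mimics a shortage of that amino acid. Each of the 8 conditions is 1 array of 1 cell line, with no replicate.

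Uncharged tRNA activates the kinase GCN2, which phosphorylates eIF2alpha. General translation then slows while the transcription factor ATF4 is made, and ATF4 with its C/EBP partners raises genes for amino acid synthesis and transport. Cells under this integrated stress response also secrete signals to other cells. GDF15 acts on the brainstem receptor GFRAL with RET and lowers appetite, FGF21 acts through beta-Klotho (KLB) and FGF receptors on fuel use, and INHBE encodes the subunit of activin E. VEGFA drives the growth of blood vessels, ADM (adrenomedullin) widens vessels through CALCRL with RAMP proteins, STC2 (stanniocalcin 2) is a glycoprotein that inhibits the protease PAPPA, and ANGPTL4 inhibits lipoprotein lipase. VEGFA, ADM and ANGPTL4 are also textbook targets of the hypoxia-inducible factors (HIF), and ANGPTL4 is also a known target gene of the PPAR nuclear receptors.

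The bases before the transcription start are shown for 4 of the genes because their values, given further on, differ in kind: GDF15 and STC2, which rose with L-histidinol, FGF21, which did not, and ANGPTL4, which followed the drugs. The promoter table of RefSeq (GRCh38.p14, 250 bases before to 50 after the start) held 5 of the 7 genes, and VEGFA and INHBE were not among them. Each line gives the 250 bases before the start, 5′ to 3′ on the gene's strand. Capitals mark the matches, on either strand, to TGATGNAA (the core of the C/EBP-ATF response element) and to ACGTG or GCGTG (the core of the hypoxia response element). ACGTG also lies within the E-box CACGTG and can overlap other elements.
GDF15 (chr19:18385908-18386157, plus strand): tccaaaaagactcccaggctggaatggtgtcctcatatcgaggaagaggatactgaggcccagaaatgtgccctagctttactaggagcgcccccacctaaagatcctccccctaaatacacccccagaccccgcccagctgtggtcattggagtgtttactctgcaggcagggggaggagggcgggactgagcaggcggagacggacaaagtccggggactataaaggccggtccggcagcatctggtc
STC2 (chr5:173328415-173328664, minus strand): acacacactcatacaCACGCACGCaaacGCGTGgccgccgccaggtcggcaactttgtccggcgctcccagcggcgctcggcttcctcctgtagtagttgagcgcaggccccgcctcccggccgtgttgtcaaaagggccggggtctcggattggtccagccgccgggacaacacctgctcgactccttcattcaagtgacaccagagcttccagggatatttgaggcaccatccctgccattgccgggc
FGF21 (chr19:48755274-48755523, plus strand): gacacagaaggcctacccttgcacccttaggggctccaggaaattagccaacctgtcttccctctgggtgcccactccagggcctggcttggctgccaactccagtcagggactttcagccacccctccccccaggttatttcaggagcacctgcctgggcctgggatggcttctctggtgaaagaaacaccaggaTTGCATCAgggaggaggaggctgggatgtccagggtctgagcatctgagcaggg
ANGPTL4 (chr19:8363905-8364154, plus strand): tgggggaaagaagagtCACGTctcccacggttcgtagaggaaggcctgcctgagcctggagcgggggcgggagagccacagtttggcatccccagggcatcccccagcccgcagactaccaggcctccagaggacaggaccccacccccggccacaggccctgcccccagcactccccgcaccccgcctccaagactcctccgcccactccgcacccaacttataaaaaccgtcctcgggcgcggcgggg
FGF21 had the 1 match to TGATGNAA among the 5 genes, read as TTGCATCA from base -54 to base -47. The window of STC2 held 3 matches to GCGTG, of which the first and the second share a base, that of ADM held 1, and that of ANGPTL4 held 1 match to ACGTG from base -234 to base -230. GDF15 had no match to any of them in this window. Over all 35116 promoters of the table, 3.62% held TGATGNAA, 21.4% ACGTG, 36.5% GCGTG and 48.4% either of the latter. A match describes letters only and is not a measured binding site.

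The median probe set intensity lay between 21.8 and 22.4 on all 8 arrays, which the authors' normalization by RMA sets, so these values cannot show whether the raw arrays differed in brightness. Values below are log2 of that intensity. The median of an array was 4.44 to 4.48 and its lower quartile 2.90 to 2.94 on the log2 scale. INHBE and FGF21 have means under 5 and lie in this dim range, and the other 5 genes have means of at least 5. The 8 epithelial markers were bright (means of 8.53 to 13.06), and the 10 measured markers of fibroblasts, blood and endothelial cells were dim (means of 2.17 to 5.79, 6 of them below 5). The 3′ to 5′ ratio of the ACTB control, which reflects RNA integrity and labelling, was 1.04 to 1.07 without and 1.10 to 1.15 with L-histidinol. That of the GAPDH control went the other way, with 0.98 to 1.01 without and 0.97 to 0.98 with L-histidinol. The part of RNA integrity and labelling in the differences below was not tested.

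L-histidinol raised 4 of the 7 genes, GDF15, INHBE, STC2 and VEGFA, by 1.73-fold to 2.72-fold in the fit over all 8 arrays, and lowered none of them. The fold of INHBE, a dim gene, depends on how background was treated. FGF21, ADM and ANGPTL4 did not pass the test. Over all genes, 11.4% were called higher and 9.17% lower with L-histidinol at an adjusted p below 0.05 (limma with Benjamini-Hochberg adjustment over 19775 genes). The median change of the 7 genes was 0.79 on the log2 scale, beside -0.01 over all genes. Since each condition has 1 array, the error is what a drug term and an L-histidinol term, simply added, leave unexplained on the arrays. It also holds any real interaction between them, and p-values measure only the spread between these arrays.

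GDF15 is a distant member of the TGF-beta family. Its log2 intensity without L-histidinol was 7.07 with vehicle, 6.87 with osimertinib, 7.69 with alpelisib and 7.95 with both drugs. With L-histidinol it was 9.40, 8.43, 8.89 and 8.63 in the same order. All 4 arrays with L-histidinol lay above all 4 without it. The fitted rise was 1.44 ± 0.19 (SE, 8 arrays) on the log2 scale, or 2.72-fold (limma adjusted p = 0.000409). The value comes from a probe set whose suffix (_x_at) marks probes that can bind other transcripts, and the other 2 probe sets of GDF15 lay near 3 on the log2 scale and gave 0.12 (adjusted p = 0.461) and 0.26 (adjusted p = 0.363) when fitted on their own.

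INHBE, the activin E subunit gene, stayed below 5 on the log2 scale on every array and was highest on L-histidinol arrays. Without L-histidinol its log2 intensity was 2.40 with vehicle, 2.13 with osimertinib, 2.48 with alpelisib and 2.10 with both drugs. With L-histidinol it was 4.58, 4.24, 3.14 and 2.62 in the same order. The groups did not overlap, and the arrays with vehicle or osimertinib stood well above those that also held alpelisib. The fitted rise was 1.37 ± 0.25 (SE) on the log2 scale, or 2.58-fold (limma adjusted p = 0.00278). Adding 16 to each intensity, which damps dim values, brought it to 0.50, still called.

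STC2 encodes a secreted glycoprotein hormone. Without L-histidinol its log2 intensity was 7.08 with vehicle, 7.24 with osimertinib, 7.28 with alpelisib and 7.73 with both drugs. With L-histidinol the 4 values were 8.07, 8.23, 8.18 and 8.62. All L-histidinol arrays were above all others, by a similar step in each treatment on this probe set. The rise was 0.94 ± 0.06 (SE) on the log2 scale, or 1.92-fold (limma adjusted p = 2.99e-06).

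VEGFA, the vessel growth factor, read 8.73 with vehicle, 8.17 with osimertinib, 8.51 with alpelisib and 8.14 with both drugs in the absence of L-histidinol. In its presence the log2 intensities were 9.80, 9.04, 9.28 and 8.60. Here the groups overlapped, since the array with both drugs and L-histidinol lay just below the array with vehicle alone. The rise was 0.79 ± 0.08 (SE) on the log2 scale, or 1.73-fold (limma adjusted p = 0.00011).

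Complete separation by L-histidinol was thus seen for 3 of the 7 genes, GDF15, STC2 and INHBE, where 4.53% of all genes were separated in this direction. VEGFA joined them in being higher in all 4 pairs of arrays, which holds for 4 of the 7 genes and for 19.6% of all genes.

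FGF21, the fasting hormone with the C/EBP-ATF match in its promoter window, was dim on every array. Its log2 intensity was 3.97, 3.68, 3.81 and 3.80 without L-histidinol (vehicle, osimertinib, alpelisib, both drugs) and 3.61, 3.70, 3.41 and 3.37 with it. The 2 arrays with osimertinib alone were level, and the other pairs were lower with L-histidinol. The fitted change of -0.29 ± 0.10 (SE) on the log2 scale did not pass the test (limma adjusted p = 0.0608), and without either of the osimertinib arrays it did, at -0.39 (adjusted p = 0.033 and 0.0331).

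ADM encodes the vasodilator adrenomedullin. It stayed between 6.0 and 6.40 on the log2 scale over all 8 arrays, with 6.31, 6.0, 6.13 and 6.23 without and 6.40, 6.32, 6.12 and 6.25 with L-histidinol. The groups overlapped widely. The fitted difference was 0.10 on the log2 scale, with a 95% interval from -0.07 to 0.27 (limma adjusted p = 0.421).

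ANGPTL4, the lipoprotein lipase inhibitor, followed the drugs rather than L-histidinol. Its log2 intensity was 6.39 with vehicle, 5.41 with osimertinib, 7.04 with alpelisib and 5.21 with both drugs, and with L-histidinol 6.66, 5.29, 7.20 and 5.36. The arrays with and without L-histidinol interleaved. The L-histidinol difference was 0.11 on the log2 scale, with a 95% interval from -0.06 to 0.29 (limma adjusted p = 0.383).

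**Figure D1:**
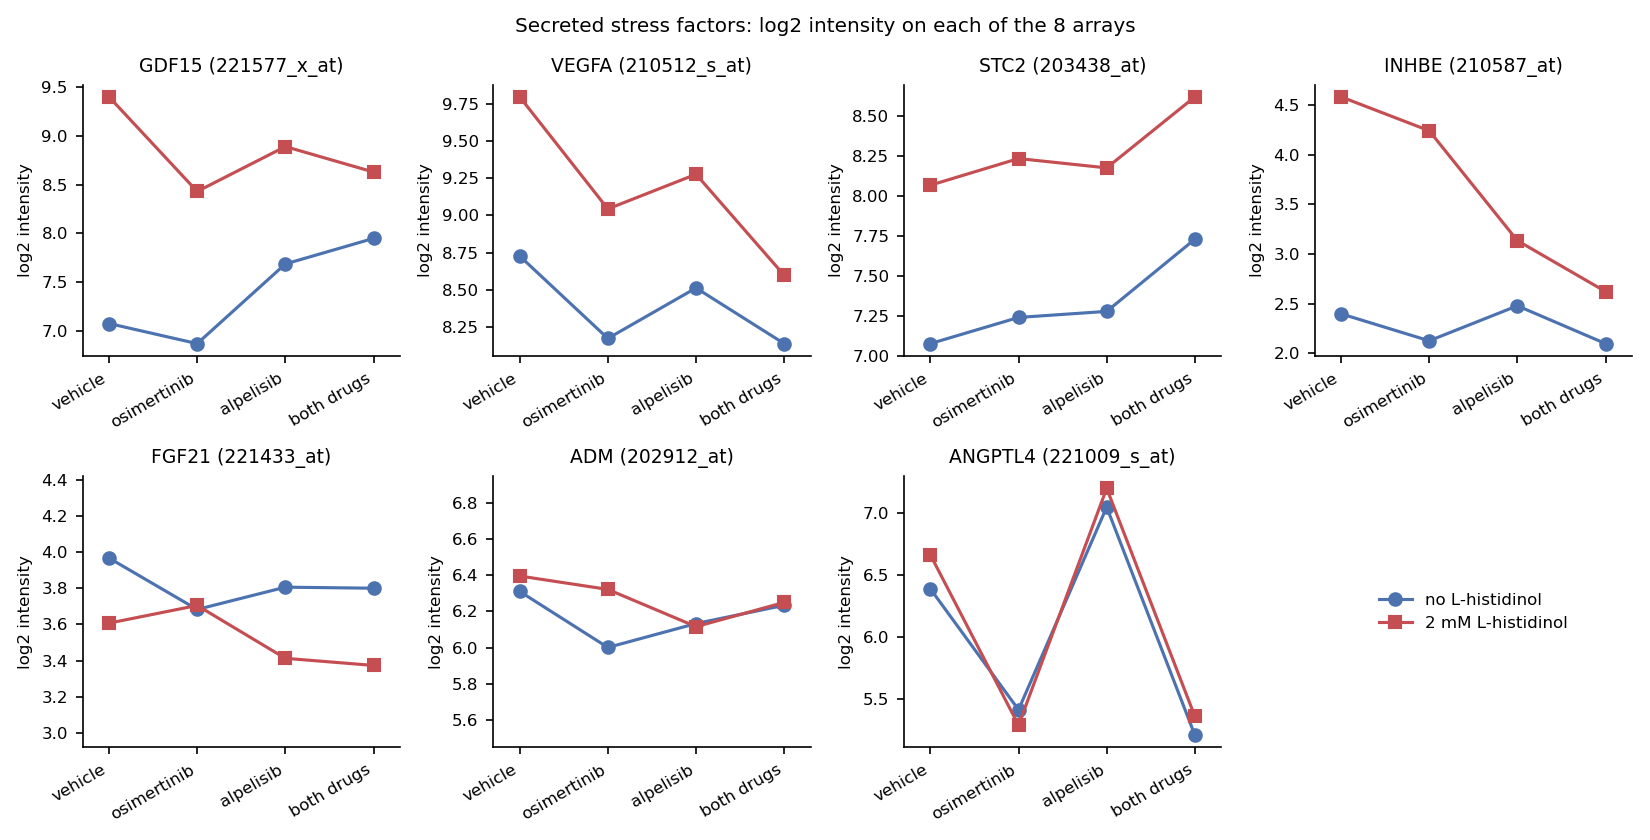
Log2 intensity (vertical axis, its own range in each panel) of the 7 genes under 4 drug treatments (horizontal axis), without (circles) and with (squares) 2 mM L-histidinol; each point is 1 array, and lines only join points of one series. The squares lie above the circles in every treatment for GDF15, VEGFA, STC2 and INHBE, while ANGPTL4 drops wherever osimertinib was given, to between 5.21 and 5.41.

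The size of the L-histidinol step in each drug background was then read from single pairs of arrays, as a description with no replicate check. For GDF15 the log2 difference was 2.33 in vehicle, 1.56 in osimertinib, 1.21 in alpelisib and 0.68 in the combination, from 5.02-fold down to 1.60-fold. For INHBE it was 2.18, 2.11, 0.66 and 0.52. The GDF15 differences were smaller with each drug, and those of INHBE were smaller where alpelisib was present. All INHBE arrays without L-histidinol lay below the arrays' lower quartile, so the size of its differences depends on how background was treated. No fold is given for these single pairs, and the fitted 2.58-fold has the same limit.

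VEGFA had differences of 1.07, 0.87, 0.77 and 0.46 in the same order. Its other probe sets gave 0.68, 0.46, 0.58 and 0.30, then 0.54, 0.72, 0.48 and 0.37, then 0.87, 0.70, 0.39 and 0.40. STC2 had 0.99, 1.00, 0.90 and 0.89 on its brighter probe set. The STC2 differences of this probe set lay close together, while its second probe set gave 1.02, 0.78, 0.78 and 0.70. FGF21 had -0.36, 0.02, -0.39 and -0.43, ADM 0.09, 0.32, -0.02 and 0.02, and ANGPTL4 0.27, -0.12, 0.15 and 0.15. The medians over all genes lay within 0.01 of 0 in each of the 4 pairs.

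**Figure D2:**
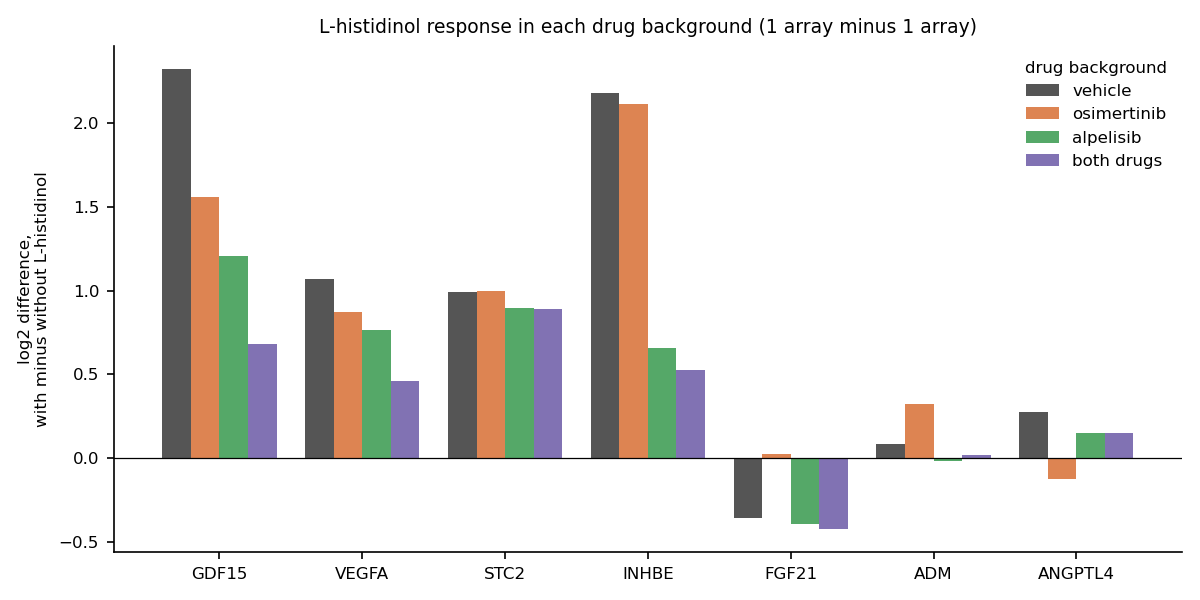
Log2 difference with minus without L-histidinol (vertical axis) for each gene (horizontal axis) in 4 drug backgrounds (colours); each bar is 1 array minus 1 array, so it has no error bar. The GDF15 bars step down from 2.33 to 0.68 and the INHBE bars drop between osimertinib (2.11) and alpelisib (0.66), while the 4 STC2 bars of its brighter probe set lie between 0.89 and 1.00.

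Whether a drug changed the response to L-histidinol was tested as an interaction, in a fit with all 2-way terms that leaves 1 residual degree of freedom and uses the variance prior of the additive fit. No gene of the 7 was called, where 0% of all genes were called for osimertinib and 0% for alpelisib. The interaction with alpelisib was -1.0 ± 0.12 (SE) for GDF15 and -1.56 ± 0.18 for INHBE on the log2 scale, both with an unadjusted p of 1.4e-05 and an adjusted p of 0.0908 (limma). The INHBE value was -0.68 with a pseudocount of 16, and the GDF15 value was -0.45 with its probe sets averaged and -0.00085 without the _x_at probe set. That last value rests on a probe set with a mean of 2.99 on the log2 scale, too dim to decide the question. For VEGFA it was -0.36 ± 0.10 (adjusted p = 0.934) and for STC2 -0.10 ± 0.12 (adjusted p = 0.975). The interaction of GDF15 with osimertinib was -0.64 ± 0.12 (adjusted p = 0.172), and that of INHBE -0.10 ± 0.18 (adjusted p = 0.912). VEGFA gave -0.25 and STC2 -0.0020 with osimertinib (adjusted p = 0.573 and 0.998). On the other VEGFA probe sets the value with osimertinib was -0.25, 0.03 and -0.08.

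FGF21, ADM and ANGPTL4, which did not pass the test for L-histidinol, had no called interaction. With osimertinib they were 0.17 for FGF21, 0.13 for ADM and -0.20 for ANGPTL4 (limma adjusted p = 0.856, 0.853 and 0.783). With alpelisib they were -0.24, -0.20 and 0.08 in the same order (adjusted p = 0.964, 0.964 and 0.99).

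These calls turn on the prior. With the prior that the 2-way fit estimates for itself, 102.7 degrees of freedom in place of 8.08, GDF15 was called in both interactions (adjusted p = 2.62e-07 for osimertinib and 4.82e-14 for alpelisib). INHBE (adjusted p = 2.22e-08) and VEGFA (adjusted p = 0.00678) were then called for alpelisib. Over the settings tried, the adjusted p of the interaction with alpelisib ran from 4.82e-14 to 0.999 for GDF15 and from 2.22e-08 to 0.711 for INHBE. With the 2-way fit's own prior 4.53% of all genes were called for osimertinib and 1.41% for alpelisib.

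The drugs moved the 7 genes in different directions. Osimertinib lowered ANGPTL4 and VEGFA, alpelisib raised ANGPTL4, and the combination lowered ANGPTL4, INHBE and VEGFA and raised STC2. ADM and FGF21 were called in no drug comparison. Among all genes, osimertinib raised 16.4% and lowered 14.0%, alpelisib raised 7.08% and lowered 4.38%, and the combination raised 21.4% and lowered 19.2%. The medians of the 7 genes were -0.31, -0.18 and -0.20 on the log2 scale, beside 0.01, 0.00 and 0.00 over all genes.

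These all-gene shares depend on scaling. Centring each array on its median moved the median change of all genes to -0.09 for osimertinib, -0.08 for alpelisib and -0.13 for the combination. The share of calls that were higher then went from 54.0% to 35.7%, from 61.8% to 32.3% and from 52.7% to 36.6%. No fitted effect of a member changed sign under this setting where it was called.

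ANGPTL4 had the largest called effects of osimertinib and of the combination among the 7 genes. All 4 arrays with osimertinib (5.21 to 5.41) lay below all 4 without it (6.39 to 7.20), which was true of 1 of the 7 genes and of 10.2% of all genes. Osimertinib against vehicle gave -1.17 ± 0.11 (SE) on the log2 scale (limma adjusted p = 2.13e-05). Alpelisib alone gave 0.60 ± 0.11 (adjusted p = 0.00693), or 1.51-fold. Added to alpelisib, osimertinib lowered ANGPTL4 by the same step without and with L-histidinol, -1.84 in each pair of arrays.

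The combination gave -1.24 ± 0.11 for ANGPTL4 against vehicle (limma adjusted p = 4.12e-06) and -0.07 against osimertinib, with a 95% interval from -0.32 to 0.18 (adjusted p = 0.777). Beyond what the single drugs add up to, the combination changed ANGPTL4 by -0.66 ± 0.16 on the log2 scale, with an unadjusted p of 0.0016 and an adjusted p of 0.243. No member was called for such an excess, where 0.0303% of all genes were. The excess was 0.59 for GDF15, 0.13 for VEGFA, 0.28 for STC2, -0.14 for INHBE, 0.07 for FGF21 and 0.31 for ADM, with adjusted p from 0.478 to 0.965. The call of the alpelisib rise was lost without the vehicle array (0.49, adjusted p = 0.0659), the alpelisib array (0.62, adjusted p = 0.0724) or the array with L-histidinol and alpelisib (0.57, adjusted p = 0.154).

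VEGFA fell by 0.65 on the log2 scale with osimertinib (SE 0.11, limma adjusted p = 0.00111) and by 0.90 with the combination (SE 0.11, adjusted p = 5.82e-05). With alpelisib it changed by -0.37 ± 0.11, which did not pass the test (adjusted p = 0.0632). It passed after median centring (-0.45, adjusted p = 0.0245), without the vehicle array (-0.55, adjusted p = 0.0243) and without either array of the combination (adjusted p = 0.00823 and 0.00843). The highest VEGFA level was that of L-histidinol alone and the lowest that of the combination alone, next to osimertinib alone.

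STC2 was the gene of the set that rose with the combination, by 0.60 ± 0.08 (SE) on the log2 scale, or 1.52-fold (limma adjusted p = 6.03e-05). Neither single drug passed the test, with 0.17 for osimertinib (adjusted p = 0.145) and 0.16 for alpelisib (adjusted p = 0.254). The rise over vehicle was 0.65 in the pair without and 0.55 in the pair with L-histidinol. Over osimertinib the combination added 0.44 ± 0.08 (adjusted p = 0.00451), where 5.96% of all genes were called higher and 7.41% lower. Over alpelisib it added 0.45 ± 0.08 (adjusted p = 0.0011). The step over osimertinib was not called without the osimertinib array (0.40, adjusted p = 0.0741) or its partner with L-histidinol (0.47, adjusted p = 0.0578).

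Against alpelisib alone the combination also lowered 2 of the 7 genes, ANGPTL4 by 1.84 and VEGFA by 0.53 on the log2 scale (limma adjusted p = 1.65e-06 and 0.00461), where 14.6% of all genes were called higher and 14.4% lower. GDF15 (0.0005), INHBE (-0.45), FGF21 (-0.02) and ADM (0.12) did not pass that test (adjusted p = 0.999, 0.419, 0.936 and 0.504). Against osimertinib alone GDF15 (0.64), INHBE (-0.82), VEGFA (-0.24), FGF21 (-0.11) and ADM (0.08) did not pass (adjusted p = 0.147, 0.163, 0.216, 0.703 and 0.713). The VEGFA call was lost without the alpelisib array (-0.51, adjusted p = 0.0652). ANGPTL4 and VEGFA were thus called lower whether osimertinib was added to vehicle or to alpelisib. On its brighter probe set STC2 was called higher with both drugs than with vehicle or with either drug alone. Its second probe set gave 0.11 over alpelisib, which was not called (limma adjusted p = 0.487).

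INHBE fell by 1.13 on the log2 scale with the combination (SE 0.35, limma adjusted p = 0.0227). The difference of the single arrays, combination minus vehicle, was -0.30 without L-histidinol, where INHBE was dim on both, and -1.96 with it. Without the array of L-histidinol alone the effect was -0.59 (adjusted p = 0.294), and without the array of L-histidinol and both drugs -0.57 (adjusted p = 0.258). Osimertinib gave -0.31 ± 0.35 (adjusted p = 0.601) and alpelisib -0.68 ± 0.35 (adjusted p = 0.269).

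ADM gave -0.19, -0.23 and -0.11 and FGF21 -0.09, -0.18 and -0.20 with osimertinib, alpelisib and the combination, with adjusted p from 0.224 to 0.701. For GDF15 no drug effect was called, and the single pairs ran in opposite directions. Alpelisib minus vehicle was 0.61 without and -0.51 with L-histidinol, and the combination minus vehicle was 0.87 without and -0.77 with it. Osimertinib minus vehicle was -0.21 and -0.97. The additive fit averages over these, to -0.59 ± 0.26 for osimertinib (limma adjusted p = 0.126), 0.05 ± 0.26 for alpelisib (adjusted p = 0.947) and 0.05 ± 0.26 for the combination (adjusted p = 0.913). Osimertinib was called without the vehicle array (-1.18, adjusted p = 0.00187) and was at -0.00011 without the array of L-histidinol alone, and without that array the combination was called at 0.64 (adjusted p = 0.0276).

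**Figure D3:**
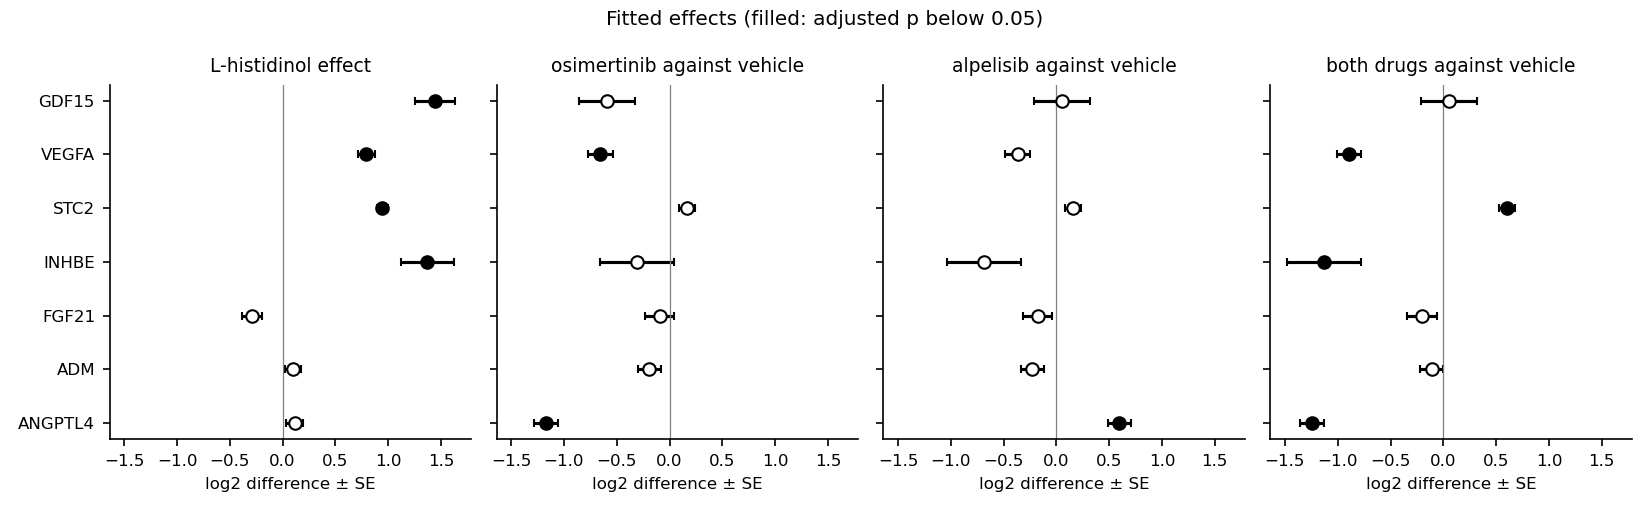
Fitted log2 differences with standard errors (horizontal axis) of the 7 genes (vertical axis) for L-histidinol and for each drug treatment against vehicle, from the additive fit over 8 arrays; filled circles have an adjusted p below 0.05. L-histidinol has 4 filled circles on the right (0.79 to 1.44), and the combination has 3 on the left and STC2 on the right (0.60).

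The other probe sets of 4 genes gave a check on the same arrays. For VEGFA the other 3 probe sets rose with L-histidinol by 0.50 to 0.59 and changed by -0.73 to -0.50 with osimertinib, all called when fitted on their own. For ANGPTL4 the second probe set gave -1.35 with osimertinib, 0.49 with alpelisib (limma adjusted p = 0.0287) and -1.35 with the combination. The second STC2 probe set had 6.80, 6.77, 7.12 and 7.27 without and 7.82, 7.55, 7.90 and 7.97 with L-histidinol, again with no overlap. Its combination effect was 0.31, below the 0.60 of the brighter probe set, and against alpelisib it was 0.11 and not called (adjusted p = 0.487). With osimertinib the STC2 probe sets differed in sign, 0.17 and -0.15, and neither was called. For GDF15 the L-histidinol rise was not called on the dimmer probe sets, as given above. The dimmest had L-histidinol steps of 1.09 in vehicle, -0.23 in osimertinib, 0.10 in alpelisib and 0.06 in the combination. INHBE, FGF21 and ADM have a single probe set.

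**Figure D4:**
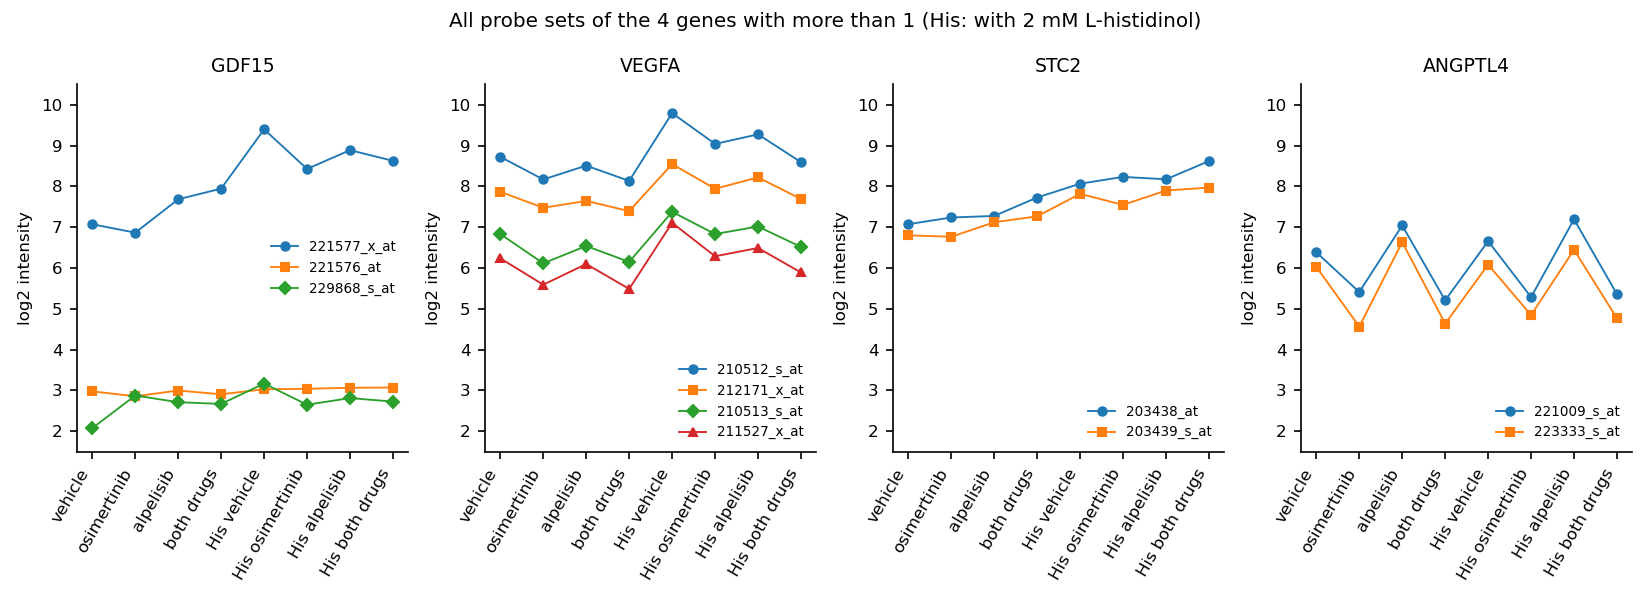
Log2 intensity (vertical axis) of every probe set of the 4 genes that have more than 1, over the 8 arrays (horizontal axis; His stands for 2 mM L-histidinol); each point is 1 array. The VEGFA and ANGPTL4 probe sets are all lower with osimertinib than with vehicle, while the upper GDF15 probe set spans 6.87 to 9.40 and the other 2 stay between 2.08 and 3.17.

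The response that surrounds these genes was read from lists of related genes. The lists were chosen with earlier results of these data known, so their counts are a description and not a test. Beside the list counts that follow, 11.4% of all genes were called higher and 9.17% lower with L-histidinol. For osimertinib these shares were 16.4% and 14.0%, for alpelisib 7.08% and 4.38%, and for the combination 21.4% and 19.2%. L-histidinol raised all 15 of the measured amino acid response targets, such as the asparagine synthetase ASNS (2.02 on the log2 scale), the serine synthesis enzyme PSAT1 (1.69) and the folate enzyme ALDH1L2 (2.08), with a list median of 1.54. Of 14 eIF2alpha kinases and stress response factors, 10 rose and 2 fell (median 0.61), among them NUPR1 (1.77), TRIB3 (1.12), ATF4 (0.82), ATF3 (0.82) and DDIT3, which encodes CHOP (0.40). GDF15, INHBE and STC2 are known members of the same programme. FGF21, introduced above among its secreted signals, did not rise (-0.29, limma adjusted p = 0.0608). The part of this programme in the changes of the 7 genes was not tested. TGATGNAA stood in the promoter windows of 3 of the 12 amino acid targets with an entry (ASNS, CHAC1 and SLC3A2).

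Genes of the hypoxia programme moved in both directions with L-histidinol, and the part of HIF in the changes of the 7 genes was not tested. EPAS1, which encodes HIF-2alpha, rose by 0.74 and HIF1A by 0.14, and VHL, the factor that marks HIF for destruction, also rose (0.25). Of 15 measured HIF targets, 3 rose (MXI1 at 0.80, HK2 at 0.32, KDM3A at 0.28) and 3 fell (PGK1 at -0.19, BNIP3L at -0.18, LDHA at -0.15), with a list median of -0.08. That is 20% each way, against 11.4% of all genes called higher and 9.17% lower. The glycolytic genes among them thus went both ways while VEGFA rose and ADM and ANGPTL4 did not pass the test. With the combination 5 HIF targets rose and 8 fell (median -0.27), led by MXI1 (1.34) and HK2 (-1.08).

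ERK, a kinase downstream of EGFR, turns on a set of output genes that include its own phosphatases and Sprouty brakes. All 12 measured ERK output genes fell with osimertinib (median -1.75). DUSP6, an ERK phosphatase, changed by -3.99 and the transcription factor gene ETV5 by -3.27. With the combination 11 of 12 fell (median -1.40), with FOSL1 at -3.65, and with alpelisib 1 rose (EGR1 at 0.93) and 1 fell (FOSL1 at -0.39). With L-histidinol 5 of the 12 rose and 1 fell. ANGPTL4 and VEGFA fell with osimertinib and the combination, as did 14.0% and 19.2% of all genes, and a link to ERK output was not tested.

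Of 10 PPAR and fasting genes, 5 (50%) rose and none fell with alpelisib (median 0.23), against 7.08% and 4.38% of all genes. The 5 were PDK4, a brake on pyruvate oxidation (1.20), PPARA (0.61), ACADVL (0.35), PPARD (0.34) and the fatty acid importer CPT1A (0.28), beside the rise of ANGPTL4. With the combination 4 rose, led by PDK4 (2.37) and PPARA (1.54), and 1 fell, PPARG (-0.35), as did ANGPTL4. These are 40% and 10%, against 21.4% and 19.2% of all genes. With osimertinib 4 rose, among them PPARA (1.12), and 2 fell, PLIN2 (-0.33) and PPARG (-0.27). These are 40% and 20%, against 16.4% and 14.0% of all genes. ANGPTL4 fell with osimertinib (-1.17), and a link of ANGPTL4 to these genes was not tested.

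Amino acid targets had medians of -0.22 with osimertinib, -0.24 with alpelisib and -0.41 with the combination. Alpelisib lowered 6 of 15 and raised none, led by DDIT4, an mTOR inhibitor gene (-0.90). Osimertinib raised 2 and lowered 6, led by VLDLR (-1.25), and the combination raised 2 and lowered 7, with PSAT1 at -1.25. Of the stress response factors, 8 rose and 3 fell with the combination, with NUPR1 at 2.54, ATF3 at 1.46 and DDIT3 at 0.77. With osimertinib 5 rose and 1 fell, and with alpelisib 1 rose and 1 fell.

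Of 25 measured receptors and binding partners of the 7 factors, 2 rose and 4 fell with L-histidinol. ACKR3, a receptor that takes up adrenomedullin (0.32), and ACVR1B, an activin receptor (0.21), rose. FGFR3 (-0.79), the adrenomedullin co-receptor RAMP1 (-0.39), the activin-binding FSTL3 (-0.39) and LMF1, which matures lipoprotein lipase (-0.23), fell. KLB (0.29, limma adjusted p = 0.115), RET (0.02, adjusted p = 0.895) and FGFR1 (-0.19, adjusted p = 0.0753) did not pass the test, and GFRAL is not analysed here.

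Osimertinib raised 5 of the 25 receptors and binding partners (20%, against 16.4% of all genes) and lowered 3 (12%, against 14.0%), with ACKR3 at 1.70, FGFR3 at 1.07 and the VEGF receptor KDR at -0.65. Alpelisib raised 3, FGFR3 (0.62), ACKR3 (0.54) and LMF1 (0.34), and lowered FGFR4 (-0.47). The combination raised 7 (28%, against 21.4% of all genes) and lowered 4 (16%, against 19.2%), with FGFR3 at 1.56, ACKR3 at 1.54, LMF1 at 0.81 and FGFR4 at -0.96. These counts lie near the shares of all genes, so they are no result about the receptors as a group. With L-histidinol the shares were 8% raised and 16% lowered, against 11.4% and 9.17%.

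Among 21 measured family relatives of the 7 factors, L-histidinol raised none and lowered 1, the activin subunit gene INHBB (-0.34). That is 0% and 4.76%, against 11.4% and 9.17% of all genes. STC1, the paralogue of STC2, did not share its rise (-0.17, limma adjusted p = 0.136) and fell with osimertinib (-1.48), alpelisib (-0.47) and the combination (-2.16). VEGFB, a relative of VEGFA, was at 0.01 with L-histidinol (adjusted p = 0.951) and rose with osimertinib (0.36) and the combination (0.47), opposite in direction to VEGFA. INHBC, the neighbour of INHBE on its chromosome and its closest relative, fell with the combination (-0.78) and was at 0.10 with L-histidinol (adjusted p = 0.394). TGFB2 rose with all 3 drug treatments (1.14 with osimertinib, 0.47 with alpelisib, 1.37 with the combination).

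Cell type markers moved in part with the treatments. With L-histidinol 5 of 8 epithelial markers fell, led by NKX2-1 (-0.62) and KRT18 (-0.53), and 0 of 10 markers of fibroblasts, blood and endothelial cells were called. With osimertinib 6 epithelial markers rose, with alpelisib 5 and with the combination 6, with NKX2-1 at 1.35, 0.86 and 1.90. Of the other 10 markers, 2 rose with osimertinib, 0 with alpelisib and 2 with the combination. These are 20%, 0% and 20%, against 16.4%, 7.08% and 21.4% of all genes. The mean log2 of those 10 stayed between 3.95 and 4.20 on all 8 arrays, and that of the 8 epithelial markers between 10.88 and 11.74. Their part in the results was not tested, and in RNA of whole cultures fewer cells of a kind and less RNA per cell cannot be told apart.

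The genes whose pattern over the 8 arrays was most like that of each member were taken by Pearson r of log2 intensity, among genes with a mean of at least 5 and a standard deviation of at least 0.3 (3243 candidates, 3244 for ADM). GDF15 was closest to PPP1R15A, which encodes the stress-induced eIF2alpha phosphatase subunit GADD34 (r = 0.982), then HDDC3 (0.973), AMPD3 (0.970), the stress sensor ERN1 (0.969) and GSAP (0.957). VEGFA was closest to UPP1 (0.988), TUBE1 (0.984), MOCOS (0.983), HSPA13 (0.983) and CSNK2A1 (0.982). STC2 was closest to the arginase ARG2 (0.985), DPY19L3 (0.983), LONRF1 (0.979), EPB41L4A-AS1 (0.975) and RAD51B (0.972).

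ANGPTL4 had GSTO1 (0.990), the chromatin protein HMGA2 (0.982), SMURF2 (0.979), DNAAF3-AS1 (0.971) and FOXL1 (0.969). ADM, which hardly varied, had no close match, with GABPB2 (0.757) first. INHBE and FGF21 were left out as dim. These values describe 8 arrays that share their treatments, and the closest of so many candidates are high by selection.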

How the data were processed

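Total RNA of 8 NCI-H1975 cultures, 1 per condition, was measured on 1 array each, and the labels do not say whether cultures were independent. The deposited values are linear intensity per probe set, made by the authors with RMA and affy per the submitters' processing notes (versions: not given in the sources used here). RMA models background and equalizes array distributions, which can shrink dim differences. Here log2 of each intensity was taken with no further scaling.

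Of 54675 probe sets, 62 controls were set aside, and 41091 carried 1 symbol in the platform annotation, 1801 several and 11721 none. Only those with 1 symbol were used, the brightest by mean for each of 19775 genes. All 7 genes were kept, since no filter on dim values was applied.

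limma 3.58.1 in R 4.3.3 fitted L-histidinol plus a 4-level drug term (variance trend, 3 residual and 8.08 prior degrees of freedom). Adjustment over all genes followed Benjamini and Hochberg, with calls at an adjusted p below 0.05. Interactions came from all 2-way terms with the additive fit's prior. Tables used pandas 2.3.3 and numpy 2.4.6 under Python 3.11.15, and plots matplotlib 3.10.9. Simulated data with known changes served to test the scripts. The number of arrays, 8, limits the precision.

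All 7 genes are named in every comparison. Of the 10 other lists, whose 137 of 147 genes with a probe set of their own symbol were used, the text names up to 5 of the largest called changes a comparison and genes whose role it needs. The members and lists were chosen with earlier results of these data known. Alternatives were other probe set rules, a dim filter, median centring, quantile normalization, a pseudocount of 16, no variance trend, all 2-way terms, the 2-way fit's own prior and leaving out each array. Fitting the other probe sets on their own was added after seeing the data.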

Additional observations from a re-analysis of the deposited data

Results flagged for a closer look

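The drug effects on GDF15 had opposite signs without and with L-histidinol, each of at least 0.5 on the log2 scale. Alpelisib minus vehicle was 0.61 in the arrays without and -0.51 in those with L-histidinol. The combination minus vehicle was 0.87 without and -0.77 with it. Each is a difference of 1 array minus 1 array, and all 4 share the 2 vehicle arrays. The interaction of L-histidinol with alpelisib for GDF15 was -1.0 ± 0.12 (SE) on the log2 scale (limma adjusted p = 0.0908) and that with osimertinib -0.64 ± 0.12 (adjusted p = 0.172), so neither was called, while both were called with the prior of the 2-way fit. For alpelisib and the combination the dimmest GDF15 probe set showed the same signs near the bottom of the range. Its log2 values with vehicle, alpelisib and both drugs were 2.08, 2.71 and 2.67 without L-histidinol. With L-histidinol they were 3.17, 2.81 and 2.73. With osimertinib this probe set read 2.88 without and 2.65 with L-histidinol. Without L-histidinol it thus lay above vehicle, unlike the main probe set. The 2 vehicle arrays were its lowest and its highest, so the signs rest on them. The remaining GDF15 probe set stayed between 2.86 and 3.07 and did not share the pattern.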

How the results depend on the processing

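Of the settings listed for processing, none reversed a called effect of the 7 genes. Of 923 gene values, 883 kept their side of the threshold, 26 became called and 14 were no longer called. Values that were called in neither fit counted as kept even where their sign changed. GDF15 with alpelisib, for example, ran from -0.54 to 0.64 over the left-out arrays. The number of the 7 genes called changed as follows. With all 2-way terms, alpelisib called 3 and the combination over osimertinib 3, in place of 1 each. With the prior of the 2-way fit, the interaction with osimertinib called 1 and that with alpelisib 3, in place of 0. Without probe sets that can bind several transcripts, VEGFA and ANGPTL4 had none left, so fewer genes were tested, and L-histidinol called 2 in place of 4, osimertinib 0 in place of 2, alpelisib 0 in place of 1, the combination 2 in place of 4, and the combination over alpelisib 1 in place of 3. After median centring alpelisib called 2. Leaving out 1 array at a time gave 0 to 2 for alpelisib and 0 to 3 for the combination over osimertinib. Apart from the tests with fewer genes or arrays, the cause was not tested.

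The L-histidinol effect of GDF15 was 0.61 with the mean of its probe sets. It was not called without the _x_at probe set (limma adjusted p = 0.454), where a dim probe set stands in. INHBE with the combination was not called without the variance trend (adjusted p = 0.0658) or when probe sets were averaged (adjusted p = 0.0513), and its L-histidinol effect ranged from 1.10 to 1.65 when single arrays were left out. INHBE was called with all 2-way terms for alpelisib (adjusted p = 0.0109), and so was GDF15 for osimertinib (adjusted p = 0.000664). Over the settings other than left-out arrays, the adjusted p ran from 1.89e-06 to 0.454 for GDF15 with L-histidinol, 0.0485 to 0.072 for FGF21 with L-histidinol, 0.000664 to 0.833 for GDF15 with osimertinib, 0.0135 to 0.176 for VEGFA, 0.0109 to 0.387 for INHBE and 0.00626 to 0.0318 for ANGPTL4 with alpelisib, 8.7e-05 to 0.0658 for INHBE with the combination, 0.00317 to 0.0341 for STC2 over osimertinib and 0.000632 to 0.0292 for VEGFA over alpelisib. The dim filter removed INHBE and FGF21. Leaving out arrays was not run for the interactions, since no residual degrees of freedom remain. The additive fit compares arrays with and without L-histidinol within each drug treatment. No pairing by replicate was possible because each condition has 1 array and the labels give no shared replicate numbers beyond that. Signal over background limits INHBE, FGF21 and the dim probe sets of GDF15.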
